A study of Mus musculus with 282 samples.

Results

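Mice without the clock factor Bmal1 that could eat only at night still had liver transcripts that differed between night and day, and the 36 libraries from these mice, of 282 in the whole study, are described here. All 36 came from male C57BL/6J mice with a knockout of Bmal1 in the whole body, kept singly in a light-dark cycle. They form 2 arms of 18 libraries. Mice of the uninjected arm received no injection, and mice of the other arm received vehicle. What the vehicle held, when it was injected, at which hours food was given and how old the mice were is not given in the sources used here. Livers were taken at zeitgeber time (ZT, hours after lights on) 2, 6, 10, 14, 18 and 22, with 3 livers per arm and time that the submitters call biological replicates. The libraries were chosen by their labels alone. Wild-type mice on the same feeding schedule (18 uninjected and 18 vehicle libraries) and uninjected wild-type mice fed arrhythmically (18 libraries) serve as references.

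Bmal1 (gene symbol Arntl) is a transcription factor that pairs with Clock to switch on the Per, Cry and Nr1d genes, whose products then repress the pair or the Arntl gene, and this loop sets daily transcription in liver cells. Mice that lack Bmal1 have no working loop, yet their livers still receive daily cues from outside, above all from meals. Feeding raises insulin, which activates the kinase complex mTORC1 and shuts FOXO transcription factors out of the nucleus. In fasting FOXO factors enter the nucleus and switch on their targets. Which daily differences are found when the clock is absent and food comes only at night is the question this comparison addresses.

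The libraries were 3' end libraries, in which reads come from the end of a transcript and their number does not grow with gene length. Depth was 2.18 to 12.6 M (mega) reads in the uninjected arm and 6.09 to 10.5 M reads in the vehicle arm. Uninjected ZT 6 replicate 1 (2.81 M reads) and ZT 22 replicate 3 (2.18 M reads) were the shallowest libraries. The first of these also stood apart, with a median correlation of 0.811 with the others. The 6 vehicle libraries of replicate 1 stood apart from the other vehicle libraries, and 6 vehicle libraries resembled a neighbouring time most closely, among them all 3 of ZT 22. The 3' reads of Arntl itself ranged from 6.51 to 20.3 reads-per-million (RPM) in the knockout libraries. When these were scaled together with the wild-type libraries, which lowers their RPM slightly, the arm means were 10.6 and 14.1 RPM in the knockout against 13.5 and 9.24 RPM in the wild type (uninjected and vehicle). Reads from the 3' end that lie outside the deleted part do not check a deletion, and which part was deleted is not stated. The 24 h amplitude of Arntl, the height of its fitted wave over its mean, was 0.14 on the log2 scale in the knockout and 2.37 in the wild type.

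Each gene was tested for the difference between the mean of ZT 14, 18 and 22 (night, 18 libraries) and the mean of ZT 2, 6 and 10 (day, 18 libraries) on a log2 scale, with the arm and the replicate number within each arm as blocks. Of 12426 genes tested, 2292 (18.4%) differed at a limma adjusted p under 0.05, 1337 (10.8%) higher at night and 955 (7.69%) higher by day. A gene was kept when it was called, had the same sign in both arms and had an unadjusted p under 0.05 in each arm. There were 1204 kept genes (9.69% of those tested), of which 752 (6.05%) were higher at night and 452 (3.64%) were higher by day. The median log2 difference was 0.48 among the former and -0.55 among the latter. A kept difference of at least 1.5-fold was found for 260 genes at night (2.09%) and 199 by day (1.6%), and one of at least 2-fold for 62 (0.499%) and 43 (0.346%). The 18 night libraries all lay above the 18 day libraries for 0 genes (0%) and all below them for 2 genes (0.0161%).

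These counts depended on the libraries used. Without the replicate block 1436 genes were called and 865 kept, of which 860 were among the 1204. Leaving out replicate 1, 2 or 3 gave 1094, 692 and 800 kept genes and 1905, 1039 and 1417 called genes. Of those kept, 752, 647 and 724 were among the 1204, which is 62.5%, 53.7% and 60.1% of the 1204. Without the 2 shallow libraries 1490 genes were kept and 3195 called, and without the 6 vehicle libraries of replicate 1 there were 797, with 1284 called. In these 2 fits 1036 and 728 of the kept genes were among the 1204. The 6 libraries that resembled a neighbouring time were not left out together.

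The 2 arms were compared with each other. Of 1304 genes called in the uninjected arm alone (10.5% of genes), 1188 (91.1%) had the same sign in the vehicle arm and 737 (56.5%) also had an unadjusted p under 0.05 there. Of 1227 genes called in the vehicle arm alone (9.87%), 1093 (89.1%) had the same sign in the uninjected arm and 728 (59.3%) also had such a p. Over all genes the same sign was found in 62.2%. The difference between the arms was itself tested. By limma 0 genes passed (0%), with 1479 at an unadjusted p under 0.05 (11.9%), and edgeR called 0 and DESeq2 76. Without the 2 shallow libraries limma called 39.

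**Figure D1:**
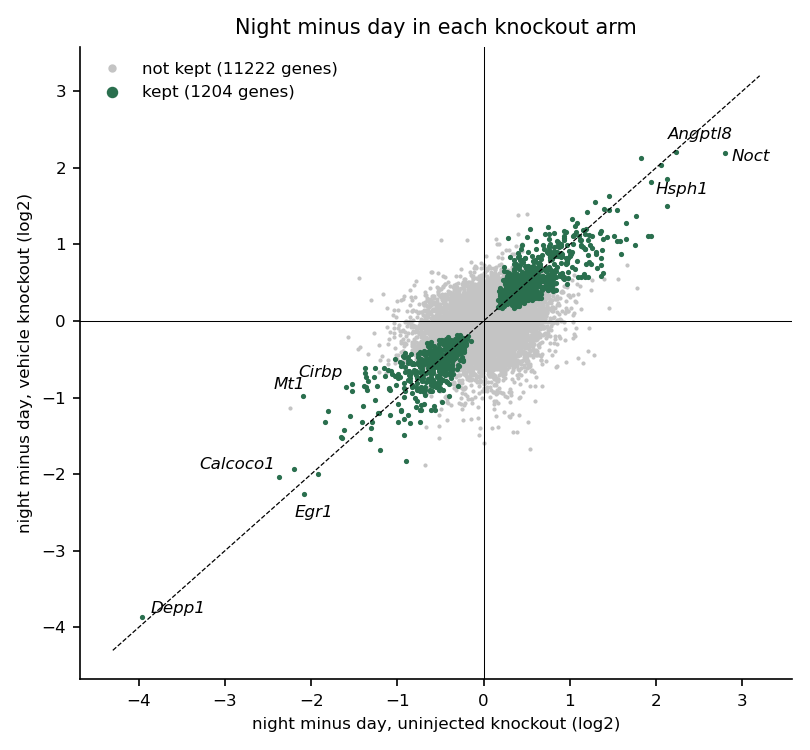
Night minus day on the log2 scale in uninjected (x axis) and vehicle-injected (y axis) Bmal1 knockout liver, 1 point per gene, with the 1204 kept genes in green, the other genes in grey and a dashed line of equality. Depp1 lies far below all other genes at -3.96 and -3.86, and kept genes have the same sign in both arms by the way they were chosen.

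The difference of largest size was that of Depp1, a FOXO target that is induced by fasting (chromosome 6, 116650609 to 116652794, plus strand, GRCm38). In the 18 day libraries Depp1 had 42.1, 140.1 and 234 RPM as the lowest, median and highest value. In the 18 night libraries it had 0.529, 6.05 and 45.8 RPM in the same order. Of the 18 night libraries 16 lay below every day library, and in the uninjected arm alone the groups did not overlap. The log2 difference was -3.91 ± 0.25 (SE, n = 18 and 18; limma adjusted p = 1.39e-11), which is 15.02-fold higher by day. In the uninjected arm the mean was 148 ± 45.5 RPM at ZT 2 (SD, n = 3), 147 ± 47.2 at ZT 6 and 115 ± 3.52 at ZT 10. It was 2.64 ± 2.62 at ZT 14, 14.9 ± 9.46 at ZT 18 and 23.6 ± 19.5 at ZT 22. The low point thus came at the first time sampled in the dark, and the mean at ZT 22 lay between that of ZT 14 and those of the day. The vehicle arm was also lowest at ZT 14, with 4.29 ± 1.80 RPM, against 25.2 ± 19.7 at ZT 22 and 194 ± 34.5 at ZT 6.

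Further insulin and FOXO genes were higher by day. Of 15 genes tested on that list 4 were kept and all 4 were higher by day, where 3.64% of all genes were kept. The list's median difference was -0.27 against 0.01 over all genes. The count was 4 to 6 without each replicate number, 6 without the shallow libraries and 5 without the vehicle libraries of replicate 1, with none higher at night. Fbxo32, a ubiquitin ligase of muscle wasting that FOXO factors induce, had 1.82, 5.11 and 13.7 RPM by day and 0.545, 1.65 and 3.44 at night, a difference of -1.44 ± 0.15 (limma adjusted p = 6.17e-08). Igfbp1, a secreted binding protein of insulin-like growth factors that insulin represses, had 35.7, 133 and 244 RPM by day and 10.1, 49.4 and 309 at night, a difference of -1.43 ± 0.22 (limma adjusted p = 2.59e-05). Its groups overlapped, and its highest value of all was that of vehicle ZT 22 replicate 1, one of the libraries that stood apart, where the mean was 154 ± 138 RPM (SD, n = 3). Sesn3, a sestrin that restrains mTORC1, differed by -0.71 ± 0.10. Irs2, an insulin receptor substrate, had a difference of -0.25 (limma adjusted p = 0.301) and Foxo1 one of 0.03 (limma adjusted p = 0.841). Neither passed the test.

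On the autophagy list 5 of 21 tested genes were kept, all 5 higher by day, where 3.64% of all genes were kept. The list median was -0.09. The count was 5 to 7 without each replicate number, 6 without the shallow libraries and 5 without the vehicle libraries of replicate 1. Calcoco1, a receptor of selective autophagy (chromosome 15, 102706777 to 102722178, minus strand), had 29.3, 63.9 and 187 RPM by day and 5.12, 18.4 and 40.4 at night. This difference of -2.07 ± 0.16 (limma adjusted p = 5.41e-10) made it 4.19-fold higher by day, and 17 of 18 night libraries lay below every day library. Its day level was higher without injection, with 149 ± 33.96 RPM at ZT 10 (SD, n = 3) against 64.4 ± 46.04 with vehicle. Flcn and Fnip1 form the folliculin complex, which acts on the Rag GTPases that bring mTORC1 to the lysosome, and they differed by -0.89 ± 0.13 and -0.70 ± 0.09. Gabarapl1, a member of the family of proteins that coat autophagosomes, differed by -0.53 ± 0.07, and Atg14, a subunit of the lipid kinase that starts the autophagosome, by -0.79 ± 0.14. Sqstm1, the cargo receptor p62, had a difference of 0.04 (limma adjusted p = 0.754) and Ulk1, which starts autophagy, one of -0.27 (limma adjusted p = 0.107). Among 12 genes of mTORC1 and its regulators 1 was kept, a share near the 9.69% kept over all genes. It was Rictor, a subunit of the related complex mTORC2. Rictor was higher by day with a difference of -0.57 ± 0.13 (limma adjusted p = 0.00209), and adjusted p was 0.0860 without replicate 3. In that fit the list had 1 gene kept at night and 0 by day. Without the block or without the vehicle libraries of replicate 1 none of the 12 was kept.

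Further genes with low night values were named by their size of difference. Arrdc3, an arrestin-like adaptor that promotes the turnover of receptors, had 10.3, 30.9 and 64.9 RPM by day and 2.54, 5.73 and 23.99 at night, a difference of -2.20 ± 0.23 (limma adjusted p = 1.24e-07), with 13 of 18 night libraries below every day library. Erbb3, a receptor of the epidermal growth factor receptor family (chromosome 10, 128567523 to 128589652, minus strand), had 16.4, 26.7 and 38.00 RPM by day and 4.72, 10.8 and 15.5 at night. Every night library lay below every day library, and the difference was -1.31 ± 0.10 (limma adjusted p = 4.57e-10). The other of the 2 genes with no overlap was Zc3h6, a zinc-finger gene named for this reason after its values were seen, with 3.67 to 8.32 RPM by day and 0.401 to 3.51 at night. The F-box gene Fbxo21 differed by -1.35 ± 0.10, the zinc-finger repressor Snai2 by -1.25 ± 0.16 and Tcp11l2 by -1.52 ± 0.21.

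Among 14 immediate early genes, which respond to signals within minutes, 3 were kept and all were higher by day, where 3.64% of all genes were kept. The list's median was 0.04. Without each replicate number 1 or 2 were kept by day and 0 or 1 at night, without the block 1 was kept by day, and without the shallow libraries there was 1 on each side. Egr1, a zinc-finger transcription factor, had 2.99, 9.05 and 50.7 RPM by day and 0, 2.09 and 4.36 at night, a difference of -2.17 ± 0.30 (limma adjusted p = 8.21e-06), and 12 of 18 night libraries lay below every day library. In the uninjected arm Egr1 was 3.83 ± 0.970 RPM at ZT 2 and 26.9 ± 22.4 at ZT 10 (SD, n = 3), so the day libraries differed widely among themselves. Klf6 differed by -0.69 ± 0.13. Junb differed by -0.68 ± 0.19 (limma adjusted p = 0.0149), with adjusted p = 0.0513 without replicate 1 and 0.143 without replicate 3. Cirbp, an RNA-binding protein that rises in the cold, had 5.61, 17.2 and 109 RPM by day and 4.07, 8.85 and 16.4 at night, a difference of -1.17 ± 0.13 (limma adjusted p = 2.82e-07). The difference was -1.53 in the uninjected and -0.82 in the vehicle arm. The highest day value was that of uninjected ZT 6 replicate 1, a shallow library, and the call held without the 2 shallow libraries.

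On the night side, the largest difference was that of Noct, a phosphatase of the nicotinamide dinucleotides (chromosome 3, 51224447 to 51251644, plus strand). Noct had 0, 1.24 and 4.89 RPM by day and 2.84, 7.72 and 19.9 at night, with 12 of 18 night libraries above every day library and no overlap within the uninjected arm. The difference was 2.49 ± 0.17 (SE, n = 18 and 18; limma adjusted p = 5.68e-11). The highest mean was at ZT 14, with 1.53 ± 0.277 RPM at ZT 10, 17.3 ± 2.41 at ZT 14 and 4.53 ± 1.13 at ZT 18 in the uninjected arm (SD, n = 3). In the vehicle arm the means at these times were 2.63 ± 1.96, 13.3 ± 4.29 and 8.43 ± 1.24 RPM.

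Secreted factors were among the genes higher at night. Angptl8, which insulin induces and which acts on the clearance of triglyceride (chromosome 9, 21835510 to 21837347, plus strand), had 3.14, 9.52 and 22.5 RPM by day and 22.01, 39.7 and 99.9 at night. Its difference of 2.22 ± 0.15 (limma adjusted p = 7.63e-11) made it 4.66-fold higher at night, and 16 of 18 night libraries lay above every day library. Tsku, a secreted protein of the liver, had 0.641, 3.62 and 19.9 RPM by day and 8.08, 19.98 and 73.8 at night, a difference of 1.97 ± 0.19 (limma adjusted p = 2.26e-08). Tsku was lowest at ZT 6 and highest at ZT 14 in both arms, 2.73 ± 1.21 and 56.3 ± 19.7 RPM without injection and 1.39 ± 0.657 and 20.8 ± 6.51 with vehicle (SD, n = 3). Inhbe, a subunit of activin E, differed by 0.87 ± 0.12. These were the 3 kept genes of 15 tested on the list of hepatokines and lipase regulators, and none of that list was kept on the day side. Over all genes 6.05% were kept at night and 3.64% by day. Angptl4, a lipase inhibitor of the fasted state that was counted with the PPAR alpha targets, had 15.9, 70.9 and 169.6 RPM by day and 8.66, 35.4 and 71.7 at night, a difference of -0.88 ± 0.14 (limma adjusted p = 6.58e-05).

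Transport proteins were among the named genes higher at night. The mitochondrial ATP-Mg/phosphate carrier Slc25a25 had 5.33, 29.8 and 78.6 RPM by day and 56.6, 108 and 173 at night, a difference of 1.99 ± 0.21 (limma adjusted p = 7.99e-08), with 14 of 18 night libraries above every day library. Slc16a6, a monocarboxylate transporter family member, differed by 1.82 ± 0.27 (limma adjusted p = 1.50e-05), and the transferrin receptor Tfrc by 1.5 ± 0.14 (limma adjusted p = 1.82e-08).

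**Figure D2:**
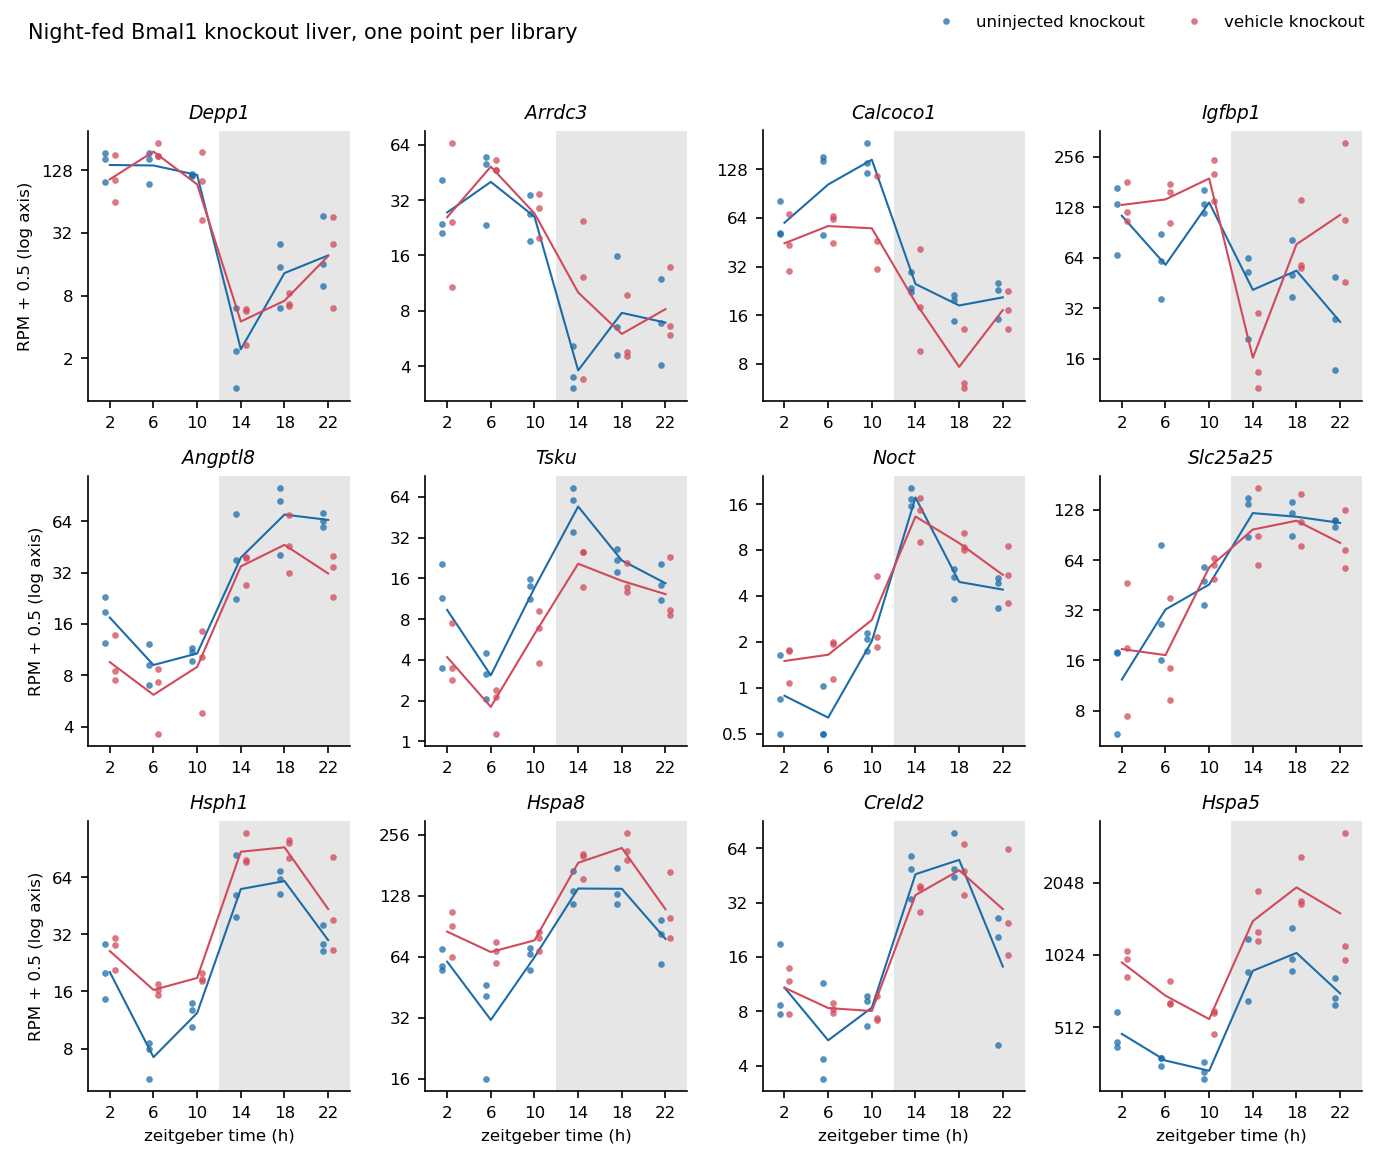
Levels of 12 kept genes at each zeitgeber time in night-fed Bmal1 knockout liver, as RPM + 0.5 on a log axis, 1 point per library (blue uninjected, red vehicle) with lines through the means of the log values and the dark phase in grey. Depp1, Arrdc3, Calcoco1 and Igfbp1 were higher by day and the other 8 at night, and Depp1 had a mean of 2.64 RPM at ZT 14 against 147 at ZT 6 without injection.

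Heat shock chaperones, which fold proteins in the cytosol and mitochondria and many of which heat shock factor induces, were mostly higher at night. Of 27 genes tested 16 were kept, all 16 higher at night, and the median difference was 0.50 against 0.01 over all genes, where 6.05% were kept on that side. The count was 15, 14 and 11 without replicate 1, 2 and 3, 17 without the shallow libraries and 15 without the vehicle libraries of replicate 1, with none higher by day. Hsph1, a large chaperone that recharges heat shock protein 70 (chromosome 5, 149614287 to 149636376, minus strand), had 5.05, 16.4 and 30.1 RPM by day and 25.5, 65.3 and 108 at night. Its difference of 1.87 ± 0.11 (limma adjusted p = 1.23e-11) was 3.66-fold, and 15 of 18 night libraries lay above every day library. Hsp90aa1, the inducible cytosolic heat shock protein 90, had 129, 219 and 436 RPM by day and 327, 681 and 1016 at night, a difference of 1.43 ± 0.09 (limma adjusted p = 1.39e-11). Hspa8, the constitutive heat shock protein 70, differed by 1.17 ± 0.10 and its cochaperone Dnaja1 by 0.84 ± 0.07. Chordc1, a cochaperone of heat shock protein 90 named here for its promoter, had 24.6 to 57.00 RPM by day and 45.4 to 91.5 at night, a difference of 0.93 ± 0.10 (limma adjusted p = 1.67e-07).

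Heat shock factor binds inverted repeats of GAA. The promoter windows of RefSeq (250 bases before to 50 after the start, GRCm38.p6) were searched on both strands for the pair GAANNTTC and for the longer GAANNTTCNNGAA, which contains the pair. Of the 13 kept heat shock genes with a window 6 held the pair (46.2%), as did 4 of 8 that were tested and not kept and 9.04% of all 27025 genes with a window. The longer motif was in 2 of 13 kept genes, in 2 of 8 not kept and in 0.662% of all genes. The share with the pair was no higher among the kept heat shock genes than among the others. The 2 kept genes with the longer motif are shown with it in capitals and a few bases on each side.
Hsph1, chr5:149636287-149636308, minus strand, motif in reverse orientation starting 37 bases after the start: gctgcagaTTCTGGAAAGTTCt
Chordc1, chr9:18292255-18292283, plus strand, motif starting 4 bases before the start: tgcaaccgGAACGTTCGGGAAaattcctg
A match of letters is a description and no evidence of binding.

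Chaperones of the endoplasmic reticulum (ER), which fold secreted proteins, were higher at night as well. Of 31 genes tested on the list of ER chaperones and the unfolded protein response 16 were kept, all 16 at night, against 6.05% of all genes. The list's median was 0.39. The count was 13 to 16 without each replicate number, 18 without the shallow libraries and 16 without the vehicle libraries of replicate 1. Creld2, a chaperone of the ER (chromosome 15, 88819646 to 88826683, plus strand), had 2.89, 7.98 and 18.5 RPM by day and 4.73, 38.6 and 77.01 at night, a difference of 2.05 ± 0.19 (SE, n = 18 and 18; limma adjusted p = 1.57e-08). The lowest night library was uninjected ZT 22 replicate 3, one of the shallow libraries, and at that time the uninjected mean of 16.9 ± 10.9 RPM (SD, n = 3) was under the 56.4 ± 17.97 of ZT 18. Hyou1, a large ER chaperone, differed by 1.57 ± 0.18 and Manf, which is secreted under ER stress, by 1.15 ± 0.12. Hspa5, the ER chaperone BiP (chromosome 2, 34771970 to 34777547, plus strand), had 311, 533 and 1062 RPM by day and 633, 1140.0 and 3299.8 at night, a difference of 1.16 ± 0.10 (limma adjusted p = 1.77e-09). The ATF4 and CHOP list was mixed, with 2 genes kept at night and 1 by day of 10 tested, against 6.05% and 3.64% of all genes. The transcription factors Ddit3 (CHOP) and Atf4 were higher at night by 1.06 ± 0.16 and 0.54 ± 0.08. Chac1, which degrades glutathione, was higher by day with a difference of -0.82 ± 0.24 (limma adjusted p = 0.0143), at 0.0820 to 3.59 RPM by day and 0 to 2.41 at night, and adjusted p was 0.179 without replicate 2.

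ER stress response elements, written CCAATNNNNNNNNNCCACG, were searched in the same windows on both strands. They were in 6 of the 13 kept ER genes with a window (46.2%), in 3 of 12 tested and not kept and in 0.137% of all genes with a window. Hspa5 and Creld2 had the smallest adjusted p of the kept ER genes with the element before the start. Their windows show the element in capitals, in both orientations, with flanking bases.
Hspa5, chr2:34771985-34772083, plus strand, element starting 65 bases before the RefSeq start: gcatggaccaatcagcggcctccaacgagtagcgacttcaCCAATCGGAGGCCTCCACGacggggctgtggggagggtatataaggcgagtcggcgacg
Creld2, chr15:88819480-88819578, plus strand, element in reverse orientation starting 126 bases before the start: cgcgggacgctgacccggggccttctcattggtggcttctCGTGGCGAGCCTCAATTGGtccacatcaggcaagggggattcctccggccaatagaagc
On the day side, the FOXO site GTAAACA was in 25 of 336 kept genes with a window (7.44%), against 3.42% of all tested genes with one, and of the 3 kept insulin and FOXO genes with a window 0 held it. The E-box CACGTG, to which Bmal1 and Clock bind, was in 15.9% of genes kept at night and 12.5% of those kept by day, against 11.9% of all tested.

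Many genes that build ribosomes were higher at night. Of 34 ribosome biogenesis genes tested 18 were kept and all 18 were higher at night, where 6.05% of all genes were kept. The list's median was 0.38. The count was 12 to 15 without each replicate number, 22 without the shallow libraries and 10 without the vehicle libraries of replicate 1. Nop56, a core protein of the particles that modify ribosomal RNA, had 4.32, 11.6 and 15.8 RPM by day and 12.8, 23.9 and 39.4 at night, a difference of 0.99 ± 0.12 (limma adjusted p = 1.43e-06), and 15 of 18 night libraries lay above every day library. Nolc1, a nucleolar chaperone, differed by 0.92 ± 0.09, Nop58, the partner of Nop56, by 0.66 ± 0.08 and Mybbp1a, a nucleolar protein, by 0.64 ± 0.09. Of 29 ribosomal protein genes 0 were kept and 1 was called by limma, against 18.4% of all genes called, with a median of 0.04. Of 20 aminoacyl-tRNA synthetases, which load amino acids onto transfer RNA, 6 were kept at night, against 6.05% of all genes, and none by day (median 0.21). That count was 3 without the block, 3 or 4 without each replicate number and 3 without the vehicle libraries of replicate 1. Aars differed by 0.52 ± 0.07 and Yars by 0.47 ± 0.08. Of 26 proteasome genes 0 were kept and 2 were called by limma, both higher at night, where 10.8% of all genes were called.

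Tubulins and actins, the subunits of microtubules and microfilaments, were mostly higher at night. Of 14 tested 10 were kept and all 10 were higher at night, against 6.05% of all genes, with a median of 0.88. The count was 7 without the block, 7 or 8 without each replicate number, 10 without the shallow libraries and 8 without the vehicle libraries of replicate 1. Tuba1c had 53.2, 119 and 487 RPM by day and 154, 426 and 828 at night, a difference of 1.55 ± 0.09 (limma adjusted p = 2.16e-12). The highest day mean of Tuba1c was at ZT 2, with 457 ± 26.1 RPM without injection (SD, n = 3) against 114 ± 19.2 at ZT 10, and the fitted peak was at ZT 20.3. Tubb2a differed by 1.30 ± 0.12, Tubb4b by 1.03 ± 0.11 and Tuba4a by 0.90 ± 0.09. Tubulin genes are near copies of one another, and how the deposited counts divided their reads is uncertain.

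**Figure D3:**
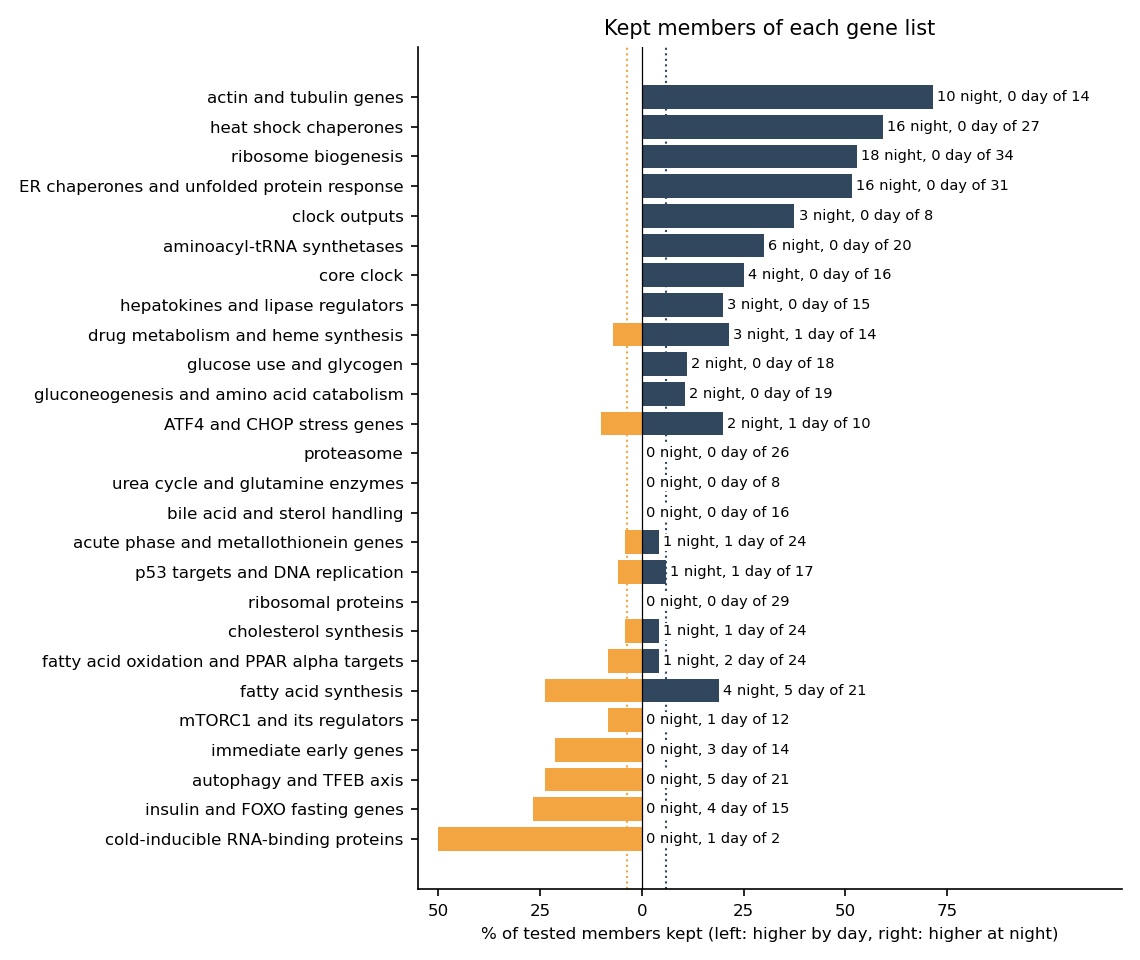
Share of the tested members of each of 26 gene lists that were kept for night minus day in both knockout arms, higher at night to the right and higher by day to the left, with dotted lines at the shares over all genes (6.05% and 3.64%). Actin and tubulin genes, heat shock chaperones, ribosome biogenesis genes and ER chaperones have 10 of 14, 16 of 27, 18 of 34 and 16 of 31 members kept at night and none by day.

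Genes of fatty acid synthesis had peaks from late night into the day. Of 21 tested, 4 were kept at night and 5 by day, and 17 were kept for a 24 h cosine. Over all genes the shares were 6.05%, 3.64% and 11.5%. Mid1ip1, an activator of acetyl-CoA carboxylase, had 2.53, 16.5 and 61.1 RPM by day and 27.3, 62.3 and 101 at night, a difference of 1.46 ± 0.14 (limma adjusted p = 1.65e-08) with a fitted peak at ZT 20.4. Fasn, the fatty acid synthase, had 395 ± 222 RPM at ZT 14, 1519.7 ± 872 at ZT 22 and 1111 ± 651 at ZT 2 in the uninjected arm (SD, n = 3), and its difference of 0.93 ± 0.16 (limma adjusted p = 1.61e-04) had a peak at ZT 21.6. Acly, which makes acetyl-CoA from citrate, peaked at ZT 1.09 with an amplitude of 1.08 ± 0.10, and its night minus day difference of -0.35 did not pass (limma adjusted p = 0.0690). Acss2, which makes acetyl-CoA from acetate, and Acacb, the mitochondrial acetyl-CoA carboxylase, had differences of -1.06 ± 0.17 and -1.05 ± 0.15, with peaks at ZT 5.28 and 3.40. The counts were 3 at night and 1 by day without replicate 1, 1 and 5 without replicate 3, and 5 and 1 without the vehicle libraries of replicate 1.

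Of 24 genes of cholesterol synthesis and uptake 1 was kept at night and 1 by day, and 13 were kept for the cosine. Over all genes the shares were 6.05%, 3.64% and 11.5%. The cosine count was 9 without replicate 1 or 3 and 7 without the vehicle libraries of replicate 1. Sc5d, a late enzyme of the pathway, differed by -0.58 ± 0.10 with a peak at ZT 2.36.

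Other metabolic genes were found on both sides. Of 19 genes of gluconeogenesis and amino acid catabolism 2 were kept, both at night, of 18 genes of glucose use and glycogen 2, both at night, of 24 genes of fatty acid oxidation 1 at night and 2 by day, and of 14 genes of drug metabolism and heme synthesis 3 at night and 1 by day, where 6.05% and 3.64% of all genes were kept. The drug metabolism list had 1 kept at night and 0 by day without the block, without replicate 1 or without the shallow libraries. The fatty acid oxidation list had 0 at night and 1 by day without the block or without the vehicle libraries of replicate 1. G6pc, the glucose-6-phosphatase that releases glucose, had 94.5, 192 and 353 RPM by day and 135, 495 and 715 at night, a difference of 1.15 ± 0.13 (limma adjusted p = 4.44e-07), and 16 of 18 night libraries lay above every day library. Pck1, another enzyme of gluconeogenesis, had a difference of 0.78 ± 0.19 (limma adjusted p = 0.00502) that was called but not kept. Alas1, which begins the making of heme, had 21.6, 95.1 and 323 RPM by day and 112, 240.3 and 713 at night, a difference of 1.45 ± 0.15 (limma adjusted p = 6.17e-08). The glycogen-targeting phosphatase subunits Ppp1r3c and Ppp1r3b were higher at night by 0.66 ± 0.10 and 0.49 ± 0.11, and the adjusted p of Ppp1r3b was 0.0502 without replicate 1, 0.0768 without replicate 3 and 0.0505 without the block. Ppara, the nuclear receptor that drives fatty acid oxidation, had a difference of -0.47 ± 0.09 (limma adjusted p = 3.77e-04), and adjusted p was 0.102 without the block. In the lists of urea cycle (8 genes) and bile acid genes (16 genes) 0 were kept, with 2 and 1 called by limma, against 18.4% of all genes called.

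Of 17 p53 and replication genes 1 was kept at night and 1 by day, as of 24 acute phase and metallothionein genes, shares near the 9.69% kept over all genes. Neither list had a kept gene in some fits, the first without replicate 2 and the second without replicate 1 or the vehicle libraries of replicate 1. For the cosine 8 of the 17 were kept, against 11.5% of all genes, and 4 without replicate 2. Cdkn1a, a cell cycle inhibitor, differed by 0.62 ± 0.11 and peaked at ZT 14.1. Mcm6, a subunit of the replication helicase, was higher by day with a difference of -0.83 ± 0.20 (limma adjusted p = 0.00412), and adjusted p was 0.0994 without replicate 2 and 0.0666 without replicate 3. The metallothionein Mt1 had 68.9, 362 and 1679 RPM by day and 32.1, 95.5 and 1373 at night, a difference of -1.54 ± 0.32 (limma adjusted p = 0.00105) with wide overlap of the groups, and it is a near copy of Mt2.

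Of 16 core clock genes tested 6 were called, against 18.4% of all genes, and 4 kept, all 4 higher at night, against 6.05%. The other 10 did not pass the test, and the list median was 0.04. Arntl had a difference of 0.02 ± 0.12 (limma adjusted p = 0.943), Clock of 0.09 ± 0.08, its paralog Npas2 of 0.14 ± 0.10 and the repressor Nr1d1 of -0.40 ± 0.23 (limma adjusted p = 0.240) at a median of 1.03 RPM by day and 0.675 at night. The repressor Per2 (chromosome 1, 91415982 to 91459324, minus strand) had 3.61, 14.5 and 21.8 RPM by day and 21.7, 33.2 and 62.6 at night, a difference of 1.25 ± 0.13 (limma adjusted p = 6.44e-08), and 16 of 18 night libraries lay above every day library. In both arms Per2 was highest at ZT 14, with 46.1 ± 6.46 and 45.1 ± 15.2 RPM (SD, n = 3). Per1, which responds to signals such as glucocorticoids, was 9.17 ± 1.88 RPM at ZT 10 and 18.95 ± 5.24 at ZT 14 without injection, and its difference of 0.83 ± 0.18 (limma adjusted p = 0.00123) had an adjusted p of 0.0513 without replicate 2. The repressors Bhlhe40 and Cry1 differed by 0.81 ± 0.11 and 0.43 ± 0.08. Nr1d2 had a difference of -0.51 ± 0.19 (limma adjusted p = 0.0614), and adjusted p was 4.19e-05 without the 2 shallow libraries. It was also called with limma without replicate 1 (adjusted p = 0.00170) and at a pseudocount of 2 (0.00623). The adjusted p of Nr1d2 was 0.00314 by edgeR and 1.69e-05 by DESeq2. Without replicate 1 there were 2 core clock genes kept at night and 1 by day, and without the vehicle libraries of replicate 1 there were 2 and 0. By edgeR or DESeq2 there were 4 and 1, and without the 2 shallow libraries 5 and 1.

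Of 8 clock output genes 3 were kept, all higher at night, against 6.05% of all genes. They were Noct (above), the deubiquitinase Usp2 at 0.84 ± 0.14 and the P450 reductase Por at 0.42 ± 0.12 (limma adjusted p = 0.0138, and 0.242 without the vehicle libraries of replicate 1). The count was 1 to 3 without each replicate number. Dbp, a transcription factor that is a direct target of Bmal1, had 2.53, 5.11 and 13.5 RPM by day and 1.75, 3.95 and 7.78 at night. Its difference of -0.47 ± 0.14 was called (limma adjusted p = 0.0180) but not kept, and adjusted p was 0.125, 0.0964 and 0.0642 without replicate 1, 2 and 3.

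A cosine with a period of 24 h was fitted to the same values to find the time of the peak. It was called in 2944 genes (23.7%) and kept in 1428 (11.5%), which means an unadjusted p under 0.05 in each arm and peaks within 4 h of each other in the 2 arms. In the uninjected arm alone 1995 genes (16.1%) were called and in the vehicle arm alone 1237 (9.95%). Both the cosine and night minus day were kept for 965 genes (7.77%), the cosine only for 463 (3.73%) and night minus day only for 239 (1.92%). The median amplitude was 0.41 among the kept genes against 0.17 over all genes. Without the block 996 genes were kept and 1826 called, without replicate 2 there were 713 and 1097, without replicate 3 there were 880 and 1690, without the vehicle libraries of replicate 1 there were 985 and 1812, and without the 2 shallow libraries 1918 and 4017. From ZT 16 to 20 there were the peaks of 492 genes (34.5%), from ZT 20 to 24 of 226 (15.8%) and from ZT 12 to 16 of 161 (11.3%). By day 245 genes (17.2%) peaked from ZT 4 to 8, 179 (12.5%) from ZT 8 to 12 and 125 (8.75%) from ZT 0 to 4. The largest amplitudes among the genes described here were those of Depp1 (2.76 ± 0.17, peak at ZT 4.87), Noct (1.86 ± 0.12, ZT 16.4) and Angptl8 (1.61 ± 0.11, ZT 18.5).

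**Figure D4:**
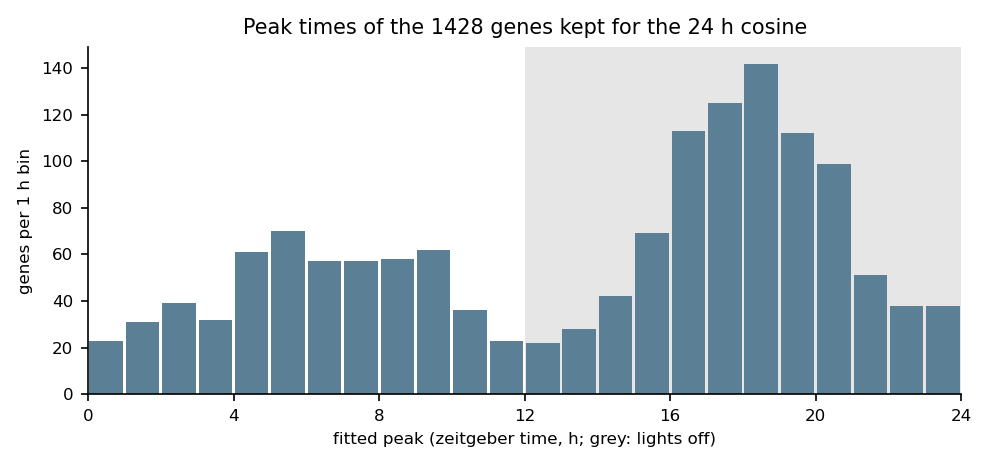
Number of genes per hour of fitted peak time among the 1428 genes kept for a 24 h cosine in both knockout arms, with the dark phase in grey. Peaks gather between ZT 16 and 20 (492 genes), with a lower and broader group by day (245 genes from ZT 4 to 8).

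The cosine also found genes that peaked near dusk or dawn, which a comparison of night with day can miss. The examples were taken after their values were seen, from those of large amplitude. Of 109 genes with a peak from ZT 10 to 14, Mfsd2a, a carrier of lysophospholipids that contain docosahexaenoic acid, peaked at ZT 13.9 with an amplitude of 1.45 ± 0.18 (limma adjusted p = 5.20e-06 for the cosine). Mfsd2a was also called for night minus day, with a difference of 1.06. The sialyltransferase St3gal5, which makes the ganglioside GM3, had 0.83 ± 0.06 and ZT 12.9, and Herpud1, which helps degrade misfolded ER proteins, had 0.76 ± 0.10 and ZT 11.1. Creld2 and Hspa5 had their peaks at ZT 17.6 and 18.7. The small GTPase Rab30 had 0.80 ± 0.10 and ZT 10.3, with 1.14 in the uninjected and 0.48 in the vehicle arm. Of 130 genes with a peak from ZT 22 to 2, Mvd, an enzyme of cholesterol synthesis, had 0.94 ± 0.13 and ZT 22.6, and Thrsp, a regulator of fat synthesis that was also kept at night, had 0.93 ± 0.14 and ZT 22.01.

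The night minus day difference was compared between the knockout and wild-type mice on the same feeding schedule, 36 libraries each. It differed in 542 of 12431 genes (4.36%), being more positive in the knockout in 355 (2.86%) and more negative in 187 (1.5%). Without the replicate block there were 229 such genes, and 247, 278 and 292 without replicate 1, 2 and 3. Without replicate 1 the 247 were 119 more positive and 128 more negative. Without the 2 shallow libraries there were 741. Of the genes kept in the knockout 1075 of 1196 (89.9%) had the same sign in the wild type, against 66.3% of all genes tested. Their median difference in the direction of the knockout was 0.51 there and 0.31 in the wild type. They were chosen on the knockout libraries, and these medians are a description. Nothing is read from the 194 of 1196 kept genes (16.2%) that differed between genotypes, of which 175 (90.2%) had the larger size in the knockout.

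Several genes of heat shock and feeding had similar values in the genotypes. Hsph1 had 1.87 in the knockout and 1.89 ± 0.12 in the wild type (limma adjusted p of the difference 0.976). The values were 1.16 and 1.21 ± 0.09 for Hspa8 (limma adjusted p = 0.912), 2.22 and 2.24 ± 0.19 for Angptl8 (0.974), 1.96 and 2.04 ± 0.16 for Tsku (0.904), and -2.06 and -2.09 ± 0.17 for Calcoco1 (0.969). These p-values do not show that the genotypes were equal. Both groups' values in this comparison come from 1 fit. In it the heat shock list had a median of 0.50 in the knockout and 0.74 in the wild type. Of its 27 genes 2 had a more negative difference in the knockout and 0 a more positive one. Over all genes these shares were 1.5% and 2.86%.

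Of 17 core clock genes 7 differed between the genotypes by limma, 3 more positive and 4 more negative in the knockout. Of 9 clock outputs 2 were more positive and 2 more negative. Over all genes the shares were 2.86% and 1.5%. The clock output Noct had the larger difference in the knockout, 2.47 against 1.53 ± 0.18 (limma adjusted p = 0.0195). Cry1 had 0.42 in the knockout and 1.93 ± 0.09 in the wild type (limma adjusted p of the difference 2.49e-12) and Arntl 0.02 and 1.88 ± 0.14 (4.79e-09). On the day side Nr1d1 had -0.39 and -3.80 ± 0.19 (limma adjusted p = 2.08e-12) and Dbp -0.47 and -1.83 ± 0.14 (1.54e-05). Ppp1r3b had 0.48 against 2.01 ± 0.14 in the wild type (limma adjusted p = 1.34e-06).

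Other genes had a night excess in the knockout that was smaller or of the other sign in the wild type. Slc25a25 had 1.99 against 0.40 ± 0.19 (limma adjusted p = 1.00e-04), Inhbe 0.87 against -0.18 ± 0.10 (6.54e-06), and Tsc22d1, a leucine zipper regulator, 1.08 against -0.19 ± 0.14 (2.69e-05). The nuclear protein Csrnp1 had 1.04 against -0.49 ± 0.17 (limma adjusted p = 4.95e-05). Of 30 genes tested on the ER list 5 were more positive in the knockout and none more negative. Over all genes the shares were 2.86% and 1.5%. The median of the ER list was 0.38 in the knockout and 0.13 in the wild type. Hyou1 had 1.56 against 0.62 ± 0.15 (limma adjusted p = 0.00625) and Hspa5 1.16 against 0.72 ± 0.08 (0.0179). Of the 14 tubulin and actin genes 4 were more positive and none more negative, against the same shares. Tuba1c had 1.54 against 0.82 ± 0.10 (limma adjusted p = 8.36e-04). By day, Depp1 had -3.90 against -2.04 ± 0.28 (limma adjusted p = 0.00241), with an adjusted p of 0.165 without replicate 2, and Egr1 had -2.16 against -0.74 ± 0.28 (limma adjusted p = 0.0259).

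Compared as 24 h cosines, 1456 genes (11.7%) differed between genotypes, 1021 (8.21%) with a smaller and 435 (3.5%) with a larger amplitude in the knockout. Without the replicate block there were 777, and 997, 565 and 845 without replicate 1, 2 and 3. Without the 2 shallow libraries there were 1946. Of the 17 core clock genes 13 differed and of the 9 clock outputs 9. The amplitude of Dbp was 0.28 in the knockout and 3.16 in the wild type (limma adjusted p = 5.71e-22). Usp2 had amplitudes of 0.94 and 2.62 (limma adjusted p = 5.37e-11), with peaks at ZT 15.1 and 12.7, although its night minus day difference was 0.83 and 0.78 (limma adjusted p = 0.952). Per2 had amplitudes of 0.89 and 1.5 with peaks at ZT 17.1 and 14.9 (limma adjusted p = 3.91e-06).

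**Figure D5:**
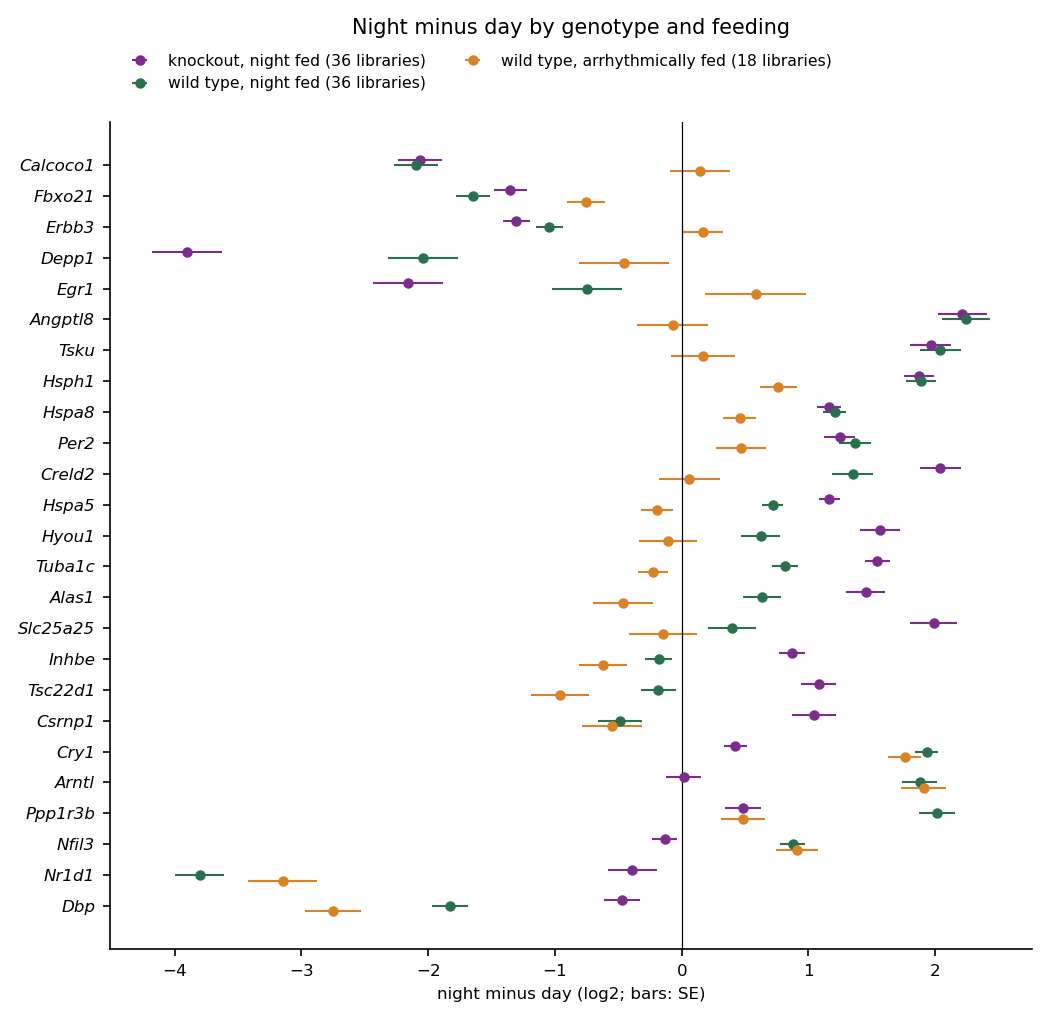
Night minus day on the log2 scale (points, with SE as bars) for 25 named genes in night-fed Bmal1 knockout (36 libraries), night-fed wild-type (36) and arrhythmically fed wild-type liver (18). Calcoco1, Angptl8 and Tsku are far from 0 in both night-fed genotypes and near 0 under arrhythmic feeding, whereas Cry1, Arntl and Nr1d1 are far from 0 in both wild-type groups and nearer to 0 in the knockout.

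Wild-type mice that were fed arrhythmically differ from the night-fed knockout in both genotype and feeding, and all 18 were uninjected while 18 of the 36 knockout libraries had vehicle. The parts of genotype, feeding and injection cannot be told apart in this comparison. The night minus day difference differed in 829 of 12422 genes (6.67%), being more positive in the knockout in 531 (4.27%) and more negative in 298 (2.4%). Without the replicate block there were 485, without replicate 1, 2 or 3 there were 566, 255 and 308, and without the 2 shallow libraries 1261. For the genes kept in the knockout the median difference under arrhythmic feeding was 0.02 in the knockout's direction. Of these, 531 of 1198 (44.3%) differed and 515 of the 531 (97%) had the larger size in the knockout, where they had been chosen.

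Under arrhythmic feeding Angptl8 had -0.07 ± 0.28 against 2.22 in the knockout (limma adjusted p of the difference 1.57e-05), Calcoco1 0.14 ± 0.24 against -2.06 (2.59e-06), Tsku 0.17 ± 0.25 against 1.97 (1.44e-04) and Depp1 -0.46 ± 0.35 against -3.90 (1.07e-06). Among the lists, ER chaperones were more positive in the knockout in 18 of 31, ribosome biogenesis genes in 11 of 34 and heat shock genes in 7 of 27. By limma 0 genes of these lists were more negative. Of 20 aminoacyl-tRNA synthetases 8 were more positive and 1 more negative. Over all genes the shares were 4.27% and 2.4%. The median of the heat shock list was 0.31 under arrhythmic feeding, and Hsph1 had 0.76 ± 0.15 there. Cirbp had -0.97 ± 0.17, against -1.17 in the knockout (limma adjusted p = 0.678). Of 17 core clock genes 5 were more positive and 3 more negative in the knockout, against the same shares over all genes. Cry1 had 1.76 ± 0.13 under arrhythmic feeding against 0.43 in the knockout (limma adjusted p = 4.12e-07) and Arntl 1.91 ± 0.18 against 0.02 (3.84e-07).

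Markers of 8 cell types were examined in the same libraries, since in bulk tissue fewer cells of a type and less RNA per cell cannot be told apart. Over all genes 18.4% were called by limma, 10.8% higher at night and 7.69% higher by day. Of 8 hepatocyte markers, 5 erythroid markers and the 1 acinar marker tested 0 were called by limma. Of 12 Kupffer cell (liver macrophage) markers 3 were called, Cd5l, Marco and Lyz2, all lower at night, and 2 were kept. Their median difference was -0.24, and their summed level was 142 to 601 RPM at night and 219.6 to 799 by day, so that the ranges overlapped. The highest sum was in vehicle ZT 2 replicate 1, one of the libraries that stood apart. Sinusoidal endothelial markers had 2 of 11 called lower at night, with a median of -0.09 and sums of 224 to 366 RPM at night and 211 to 382 by day. Stellate cell markers had 1 of 11 called lower at night, with a median of -0.22 and sums of 209.7 to 421 RPM at night and 284 to 484 by day. Sox9, 1 of 2 cholangiocyte markers tested, was called higher at night and Ptprc, 1 of 3 leukocyte markers tested, higher by day. No marker in the table was at 0 in all libraries. Their part in the genes that differed between night and day was not tested.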

How the data were processed

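Liver RNA from the lateral lobe was made into QuantSeq 3' mRNA FWD libraries, per the labels' protocols. The submitters' processing notes name STAR 2.7.3a, SAMtools and the builds mm10 and GRCm38.p6, while the sources used here do not give the program that counted reads, its annotation or the scaling. As deposited, the table holds a scaled signal per gene, and each library's values proved to be read counts divided by 1 factor. Whole reads were recovered for 100% of values (within 0.01 read). Of the table's columns 90 were used and 144 were not.

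Recovered reads of 15907 genes were scaled by TMM (edgeR 4.0.16) to RPM and tested as log2(RPM + 0.5) in limma 3.58.1 (R 4.3.3) for genes whose mean reached 1 RPM. Fold changes are on that scale and understate those of low genes. The model had a mean per arm and time and the replicate number within each arm as 6 blocks, with Benjamini-Hochberg adjustment over all genes tested and a threshold of 0.05. In the comparisons with other mice their replicate numbers were blocks as well. Labels call the replicates biological without naming a shared batch. Residuals of libraries with the same number in an arm had a median correlation of 0.479 with vehicle (44 of 45 pairs over 0.1) and 0.0544 without injection (11 of 45), so the check shows shared deviations in the vehicle arm only. The block was kept in both arms as the comparison was set out. The methods were tested on simulated counts without deviations shared by a replicate number. That test does not cover the shared deviations of the vehicle arm.

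Genes were named by a rule: the 10 highest and 10 lowest kept differences and the 10 largest kept amplitudes with at least 5 RPM in each arm, all clock and clock output genes, up to 4 kept genes of each other list, and the 8 largest gains and losses against the wild type. Irs2, Foxo1, Sqstm1, Ulk1, Atg14, Chordc1, Acly, Pck1, Mvd, St3gal5, Herpud1, Rab30, Zc3h6 and the marker genes stand outside it and were chosen after their values were seen, or as best known members of a list. Some genes that the rule takes in are not reported here. The comparison, lists and tests were chosen with earlier results of these data known. Alternatives were another scaling, filter, pseudocount, block and test (edgeR, DESeq2 1.42.0), a stricter rule for both arms, and libraries left out. The alternatives without uninjected ZT 6 replicate 1 alone or without the 6 vehicle libraries of replicate 1 were added after seeing the data.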

Additional observations from a re-analysis of the deposited data

Results flagged for a closer look

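Of the 101 named genes, 37 had a night minus day difference that itself differed between knockout and wild-type mice on night feeding, by limma at an adjusted p under 0.05. The difference was more positive in the knockout for 22 and more negative for 15, and 35 of the 37 are given here. Values in parentheses are knockout minus wild type on the log2 scale, from 36 libraries of each genotype. Part of these genes entered the named genes because they were called in this same comparison, so their number is a description. The genotype difference was refitted under alternatives only for 16 named genes, those of largest gain or loss. For the others a call without a stated loss was not tried.

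Among clock genes and outputs the value was more negative in the knockout for Arntl (-1.86), Cry1 (-1.51), Nfil3 (-1.01), Wee1 (-0.85) and Clock (-0.38). It was more positive for Nr1d1 (3.41), Dbp (1.36), Noct (0.94) and Nr1d2 (0.91). Nr1d1 itself had -0.39 in the knockout and -3.80 in the wild type in that fit. Noct is the one of these with a larger night excess in the knockout.

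Among genes with a day excess in the knockout the value was negative for Mt2 (-2.10), Mt1 (-1.89), Depp1 (-1.86), Ces1d (-1.78), Egr1 (-1.41), Snai2 (-0.73) and Sesn3 (-0.50). The metallothioneins Mt1 and Mt2 are near copies, and the division of reads between the 2 is uncertain. For Mt1, Mt2 and Ces1d, a carboxylesterase, the wild-type value had the other sign. Without replicate 1 the genotype calls of Mt2 (limma adjusted p = 0.289), Mt1 (0.0954) and Ces1d (0.0766) were lost, as were the knockout's own day excess of Mt2 (0.174) and of Ces1d (0.149), and without replicate 3 the genotype call of Mt2 (0.0585). Depp1 lost its genotype call without replicate 2 (0.165). Genes with a positive difference in both genotypes that was smaller in the knockout were Ppp1r3b (-1.53) and Nat8f5 (-1.43).

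Genes with a positive value and a night excess in the knockout included the stress and secretory genes Hyou1 (0.94), Hspa5 (0.44) and Inhbe (1.05), the tubulins Tuba1c (0.73), Tubb4b (0.63) and Tuba4a (0.53) and the genes of metabolism and protein synthesis Slc25a25 (1.59), G6pc (0.74), Alas1 (0.82), Got1 (0.63), Mybbp1a (0.42) and Farsb (0.39). The regulators Csrnp1 (1.53) and Tsc22d1 (1.27) and the lipid carrier Mfsd2a (1.25) also had a night excess in the knockout, and each had a value below 0 in the wild type. The values of Rgs16 (1.72) and Trib3 (1.55) were positive too, with a day excess in both genotypes that was smaller in the knockout. The genotype call of Rgs16 was lost at a pseudocount of 0.1 (limma adjusted p = 0.336), without replicate 2 (0.143) and without replicate 3 (0.257, with a value of 0.81), and its knockout day excess without replicate 1 (0.0706) or 2 (0.0985). The knockout day excess of Trib3 was lost without replicate 2 (0.0828) or 3 (0.0794), and the knockout night excess of Mfsd2a without replicate 1 (0.115).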

How the results depend on the processing

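Kept differences between night and day numbered 1204, and 1000 to 1345 under another scaling, filter, pseudocount or test, a shared block or a single night term. They numbered 865 without the replicate block, 517 when an adjusted p was required in each arm, 692 to 1094 without 1 replicate number, 1480 without uninjected ZT 6 replicate 1 and 797 without the vehicle libraries of replicate 1. For the 24 h cosine, 1428 genes were kept, and 700 with an adjusted p in each arm, 713 to 1388 without 1 replicate number and 1801 without uninjected ZT 6 replicate 1. Genes called for night minus day fell from 2292 to 1436 without the replicate block. Between vehicle and uninjected knockout 0 genes were called by limma, with 0 to 1 without 1 replicate number, 1 without uninjected ZT 6 replicate 1, 39 without the 2 shallow libraries and 76 by DESeq2.

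Against the wild type 542 genes differed in night minus day, 229 without the replicate block and 247 to 292 without 1 replicate number. For the cosine there were 1456, 777 without the block and 565 to 997 without 1 replicate number. Against arrhythmic feeding there were 829, 485 without the block, 1261 without the 2 shallow libraries and 255 to 566 without 1 replicate number. Fits without a replicate number use fewer libraries, and the cause of the other changes was not tested. There were 1602 values of night minus day for the named genes under these alternatives. Of them 1541 stayed on the same side of the threshold, 55 lost the call and 6 gained it (Nr1d2). Where the reported or the alternative value was called, 0 changed sign. Sign changes between values that were both not called were not counted. The knockout minus wild type values were refitted only for the 16 genes named as the 8 largest gains and losses. Of these 159 values 151 kept their direction and side of the threshold and 8 lost the call. The genotype calls of the other named genes were not tried under the alternatives. At 2.18 and 2.81 M reads the 2 shallow libraries limit the precision of low genes at ZT 6 and ZT 22.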
